A study of Homo sapiens with 4 samples.

Results

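SRF and 9 of its best known contractile and adhesion targets were followed in HGC-27 cells treated with the peptide GLUP. The 10 genes, SRF, ACTA2, ACTG2, TAGLN, CNN1, CNN2, TPM1, MYL9, VCL and FLNA, were chosen by name and found by gene symbol among the 62443 genes of the expression table. HGC-27 is a human gastric cancer cell line. GLUP is a designed peptide that binds TEAD4, a transcription factor of the Hippo pathway. Bulk RNA-seq was carried out on 2 libraries of cells that received GLUP at 10 μg/ml and on 2 control libraries. All cells were grown in medium with serum, and the control cells were recorded as untreated in the sample labels but as having received the peptide's storage buffer in the study's methods. The exposure time is given as 12 h in the account of the experiment and as 48 h in its protocol, so the time behind these values is not certain. The libraries are called biological replicates in the methods, but nothing says whether they came from separate days, and the p-values measure the spread between these libraries.

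SRF is a transcription factor that binds a short DNA element known as the CArG box. Its coactivators MRTFA and MRTFB bind monomeric actin in the cytoplasm, and they enter the nucleus and join SRF when actin assembles into filaments. Genes switched on in this way encode actins and the proteins that bind, cross-link or pull on actin filaments. In smooth muscle and in activated fibroblasts the same genes build the contractile apparatus, and in cultured epithelial tumour cells several of them are used for stress fibres and for attachment to the substrate. SRF also drives immediate early genes such as FOS and EGR1 through a second group of partners, the ternary complex factors ELK1, ELK3 and ELK4. TEAD factors bind the letters CATTCC and share some of these target genes with SRF.

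Values are FPKM, the fragments of a gene scaled by transcript length and by how many fragments of the library mapped, and the sequencing depth behind them is unknown. Differences between groups were tested with limma on log2(FPKM + 1), a scale that understates the change of genes with a low FPKM. Over the genes whose mean FPKM was 1 or more, the correlation of these log2 values was 0.986 between both GLUP libraries and 0.933 between both control libraries, while control 1 was closer to the GLUP libraries (0.952 and 0.957) than to control 2, which was at 0.873 and 0.886 with them. The median log2 difference of all 7588 genes tested was −0.36, so most genes were lower with GLUP, and changes are also given relative to this median. This shift followed the base composition of the transcripts, with a median of −0.78 in the lowest of 5 equal bins of GC content and 0.44 in the highest. ACTA2, TPM1 and VCL lay in the middle bin (median −0.41) and CNN2 in the highest.

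The labelled cell type was compared with marker genes. EPCAM and CDH1, which define most epithelial cells, were at or near 0 in every library (at most 0.124 FPKM), whereas the keratin KRT7 was at 5.24 to 7.78 FPKM and vimentin (VIM) at 293 to 387 FPKM. The 8 epithelial markers summed to 11.2 and 12.02 FPKM without GLUP and to 12.4 and 12.6 FPKM with it. KRT8, KRT18 and KRT19 were higher in both GLUP libraries, and EPCAM, CDH1 and KRT7 lower. Of all genes above 0 FPKM, 13.2% were higher and 26.5% lower in both GLUP libraries. Of the genes averaging 1 FPKM or more, 17.5% were higher and 49.7% lower in both. These shares are to be read beside each such count of markers here. Of the 6 mesenchymal markers 4 were lower in both GLUP libraries (CDH2, FN1, ZEB1 and ZEB2), with ZEB1 at 7.05 and 19.2 FPKM without GLUP and at 2.88 and 2.92 FPKM with it (unadjusted p = 0.0126, adjusted p = 0.104 in limma). Of the smooth muscle markers, MYOCD was listed at 0 in every library, MYH11 stayed at or below 0.0888 FPKM, and all 7 summed to 1.24 and 1.85 FPKM without GLUP and to 1.32 and 0.899 FPKM with it, mostly from SYNM (at most 0.905 FPKM). DES (0 and 0 against 0.124 and 0.0756 FPKM, unadjusted p = 0.0207) and SMTN were higher in both GLUP libraries, and SYNM lower. The 8 fibroblast markers summed to 128 and 121 FPKM in the control libraries and to 123 and 127 FPKM in the GLUP libraries, mostly from LUM, DCN and COL3A1. These sums overlapped between the groups, although COL1A1, PDGFRB and THY1 were higher and DCN and PDGFRA lower in both GLUP libraries. Endothelial and immune markers were at or near 0 (at most 0.250 FPKM), with PECAM1 not analysed here.

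The DNA before the start of these genes was read first, since SRF acts through it. RefSeq windows of 300 bases, from 250 bases before to 50 bases after an annotated start, were on hand for 8 of the 10 genes on GRCh38.p14, and those of TAGLN and MYL9 were not analysed here. A CArG box (CC, 6 letters that are each A or T, then GG, which reads as the same motif on either strand) was found in SRF, ACTG2, CNN2 and FLNA, that is in 4 of 8 genes, against 1.6% of all 27305 gene symbols (1.29% of all 35116 windows). The genes were chosen as known targets of SRF, so this excess is no independent result. SRF held 2 boxes, 30 and 10 bases before the start, and ACTG2 held 2, at 110 and 73 bases. CNN2 held 1 at 89 bases and FLNA 1 at 94 bases before the start. The 4 windows are shown on the strand of the gene with the CArG boxes in capitals, because these genes include the largest ratio of means among the genes with no library listed at 0 (FLNA) and a gene whose groups overlapped (SRF). They lie at chr6:43171019-43171318 (SRF, plus strand), chr2:73892758-73893057 (ACTG2, plus strand), chr19:1026358-1026657 (CNN2, plus strand) and chrX:154374585-154374884 (FLNA, minus strand).
SRF: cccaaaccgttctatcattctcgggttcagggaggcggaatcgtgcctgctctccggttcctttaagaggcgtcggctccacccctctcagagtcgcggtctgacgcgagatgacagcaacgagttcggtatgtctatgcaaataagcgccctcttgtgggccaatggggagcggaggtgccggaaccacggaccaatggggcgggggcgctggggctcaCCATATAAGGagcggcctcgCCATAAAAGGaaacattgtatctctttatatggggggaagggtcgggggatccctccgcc
ACTG2: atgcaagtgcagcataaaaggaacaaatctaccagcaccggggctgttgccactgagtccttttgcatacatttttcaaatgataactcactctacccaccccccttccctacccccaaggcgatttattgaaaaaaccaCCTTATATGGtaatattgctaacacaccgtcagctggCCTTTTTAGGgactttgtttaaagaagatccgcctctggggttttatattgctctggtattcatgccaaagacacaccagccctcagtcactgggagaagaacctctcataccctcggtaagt
CNN2: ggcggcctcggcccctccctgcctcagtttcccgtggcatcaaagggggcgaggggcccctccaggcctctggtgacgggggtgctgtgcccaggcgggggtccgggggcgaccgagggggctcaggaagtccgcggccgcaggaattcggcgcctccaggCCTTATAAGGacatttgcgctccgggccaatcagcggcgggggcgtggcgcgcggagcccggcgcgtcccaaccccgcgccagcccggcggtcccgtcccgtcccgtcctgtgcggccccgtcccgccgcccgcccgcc
FLNA: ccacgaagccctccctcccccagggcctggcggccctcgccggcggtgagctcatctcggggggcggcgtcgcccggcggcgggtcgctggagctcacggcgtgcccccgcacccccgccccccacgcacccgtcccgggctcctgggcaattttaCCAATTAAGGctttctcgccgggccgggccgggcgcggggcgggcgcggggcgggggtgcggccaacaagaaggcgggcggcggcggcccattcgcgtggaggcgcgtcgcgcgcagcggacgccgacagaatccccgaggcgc

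No complete CArG box was present in the windows of ACTA2, CNN1, TPM1 and VCL, which says nothing of sites outside them. The window at the second ACTA2 start (chr10:88952724-88953023, minus strand) held 2 stretches that are 1 letter away from a CArG box. At least 1 such near match occurs in 17.9% of all windows, and the share with 2 was not counted. The SRF and ACTG2 windows shown above held 1 each besides their complete boxes. Whether SRF binds any of these stretches was not tested. It also held the TEAD letters, CATTCC on the opposite strand, 183 bases before the start, shown in capitals as GGAATG because ACTA2 had the highest FPKM of the 10 genes and the TEAD site is the one that GLUP's target protein binds. VCL held the same letters 171 bases before its start, and 14% of all windows hold CATTCC on either strand.
ACTA2: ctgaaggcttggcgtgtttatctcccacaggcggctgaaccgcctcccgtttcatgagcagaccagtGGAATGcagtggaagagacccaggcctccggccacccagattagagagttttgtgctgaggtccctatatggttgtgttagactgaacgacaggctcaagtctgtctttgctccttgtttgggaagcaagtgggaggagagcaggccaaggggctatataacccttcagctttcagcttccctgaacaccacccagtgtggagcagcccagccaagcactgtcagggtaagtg

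Level and response differed widely among the 10 genes. ACTA2, CNN2, TPM1 and VCL averaged 1 FPKM or more and entered the main test, and the other 6, all with a mean under 1 FPKM, were read from a second fit over all 28873 genes above 0. In the main test 3 of the 4 were higher (33.3% of all genes tested) and 1 was lower (66.7%). In the second fit 6 genes were higher and 4 lower with GLUP, against 42.5% higher and 57.5% lower among all genes of that fit. With all 4 libraries, none of the 10 genes passed an adjusted p of 0.05 in limma in either fit. Of all genes tested 0.0264% did, and of all genes above 0 in the second fit 0% did. At an unadjusted p under 0.05, FLNA and ACTG2 passed in the second fit (both higher, against 3.4% of its genes) and none of the 4 genes passed in the main test. Both GLUP libraries lay above both control libraries for ACTA2, ACTG2, CNN2 and FLNA (13.2% of all genes above 0, and 17.5% of the genes of the main test) and below both for TPM1 and MYL9 (26.5% and 49.7%). SRF, TAGLN, CNN1 and VCL overlapped between the groups. The median log2 difference was 0.19 over the 10 genes and −0.02 over all genes above 0. Without control 2 the median of the 10 was −0.00054, with 5 genes higher and 5 lower, and without GLUP 1 it was 0.074. With 2 libraries against 2, an exact two-sided permutation test cannot give a p under 0.333, and none was made. In bulk RNA, fewer cells that express a gene and less RNA per cell cannot be told apart.

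**Figure D1:**
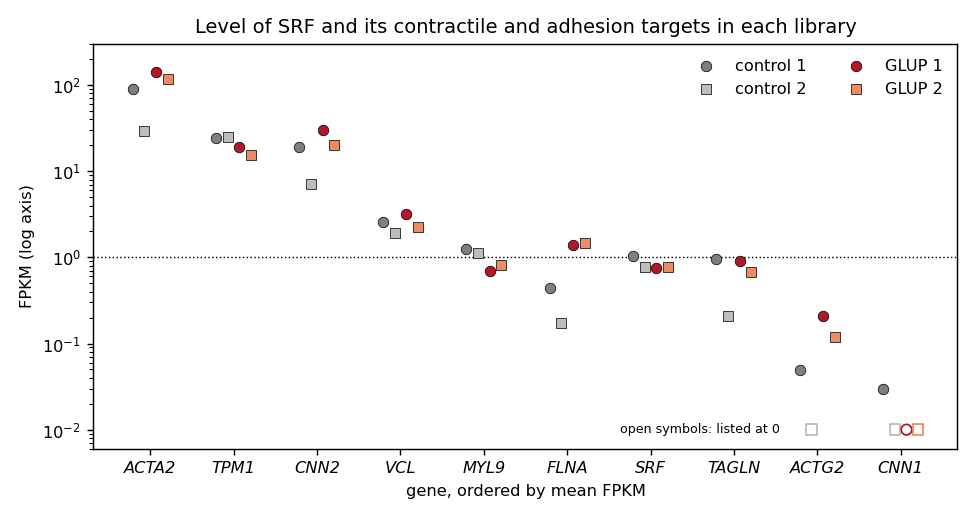
FPKM of SRF and its 9 targets in each of the 4 libraries, on a log axis, with control libraries and GLUP libraries as separate symbols and open symbols for a gene listed at 0. ACTA2 (29.0 to 141 FPKM) lies far above the other genes, and only FLNA, ACTA2, CNN2 and ACTG2 have both GLUP symbols above both control symbols.

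SRF itself (ENSG00000112658, GRCh37 chr6:43139007-43149244, plus strand) was expressed at a low level in both groups. It was at 1.04 and 0.776 FPKM without GLUP and at 0.754 and 0.778 FPKM with it. Control 1 alone was higher, and control 2 was level with both GLUP libraries. The fitted log2 difference was −0.11 (SE 0.18, 95% CI −0.60 to 0.38, limma adjusted p = 0.754), an interval that leaves room for a change of up to 0.60 on this scale.

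The partners of SRF were low as well, and 5 of the 6 that had a value were lower in both GLUP libraries than in both control libraries (26.5% of all genes above 0 were). MRTFA, which senses actin as described above, was at 1.79 and 0.848 FPKM without GLUP and at 0.758 and 0.346 FPKM with it (log2 difference −0.56, adjusted p = 0.524). MRTFB, its close relative, was at 0.685 and 0.563 FPKM against 0.549 and 0.316 FPKM (−0.18, adjusted p = 0.609). SCAI, a protein that inhibits MRTF-dependent transcription in the nucleus, had the lowest p among them, with 0.780 and 0.722 FPKM without GLUP and 0.210 and 0.226 FPKM with it (−0.52, unadjusted p = 0.0280, adjusted p = 0.341), where 9.56% of all genes above 0 were lower at an unadjusted p under 0.05. The ternary complex factors ELK4 (0.560 and 0.393 against 0.301 and 0.134 FPKM) and ELK3 (0.246 and 0.261 against 0.170 and 0.182 FPKM) were lower too, and ELK1 overlapped (0.109 and 0.0843 against 0.218 and 0.0814 FPKM). MYOCD, the coactivator of the smooth muscle lineage, was listed at 0 in all 4 libraries. None of the 7 genes reached a mean of 1 FPKM or an adjusted p under 0.05 in limma.

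ACTA2, smooth muscle alpha-actin (ENSG00000107796, chr10:90694831-90751096, minus strand), had the highest FPKM among the 10 genes and one of the larger differences. It was at 91.3 and 29.0 FPKM without GLUP and at 141 and 118 FPKM with it. Both GLUP libraries were higher than both control libraries, but the control libraries differed from each other by a factor of 3.15 and the GLUP libraries by 1.19. The group means were 60.1 ± 44.02 and 129 ± 16.2 FPKM (SD, n = 2), a ratio of 2.15. The log2 difference was 1.30 (SE 0.57, 95% CI −0.12 to 2.72), with an adjusted p of 0.180 in limma, and 96.3% of the genes tested had a lower value. The size rested on control 2: without it the log2 difference was 0.49, and without control 1 it was 2.11. Of the 6 smooth muscle markers with a value, 2 were higher and 1 lower in both GLUP libraries, all under 1 FPKM, and of the 8 fibroblast markers 3 were higher and 2 lower, as given above. Their part in the ACTA2 difference was not tested.

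The cytoplasmic actins were higher with GLUP as well, short of the adjusted threshold. ACTB, beta-actin, was at 524 and 323 FPKM without GLUP and at 1686 and 929 FPKM with it (log2 difference 1.60, unadjusted p = 0.0101, adjusted p = 0.101). ACTG1, gamma-actin, was at 346 and 70.4 FPKM against 622 and 435 FPKM (1.73, adjusted p = 0.175). Within the summed FPKM of 6 actin genes, the share of ACTA2 was 9.50% and 6.87% in the control libraries and 5.74% and 7.94% in the GLUP libraries. These shares overlapped between the groups. The actin coding sequences are nearly identical, and how the authors' counting divided reads among them is not stated, so these shares are uncertain. ACTA2 also overlaps FAS, STAMBPL1 and ACTA2-AS1 on the opposite strand, and none of these had higher FPKM in both GLUP libraries than in both control libraries. FAS was at 6.29 and 10.5 FPKM without GLUP and at 2.91 and 5.54 FPKM with it, and ACTA2-AS1 was at or below 0.0237 FPKM. Whether the library kit kept the strand is not stated.

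ACTG2, smooth muscle gamma-actin (ENSG00000163017, chr2:74119441-74146992, plus strand), was close to absent. It was at 0.0490 FPKM in control 1 and listed at 0 in control 2, and it was at 0.208 and 0.118 FPKM in the GLUP libraries. Both GLUP libraries were above both control libraries, with a log2 difference of 0.18 (SE 0.066, unadjusted p = 0.0492, adjusted p = 0.384). No fold is given, since a control library is listed at 0, and the log2 difference was 1.09 with a pseudocount of 0.1. ACTG2 made up at most 0.00851% of the summed actin FPKM.

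The calponins, which bind actin filaments and restrain myosin, differed in direction within their family. CNN2 (ENSG00000064666, chr19:1026585-1039067, plus strand), the form of non-muscle cells, was at 19.3 and 7.09 FPKM without GLUP and at 30.4 and 20.1 FPKM with it. The lower GLUP library was above the higher control library by a factor of only 1.04. limma gave a log2 difference of 1.01 (SE 0.52, 95% CI −0.28 to 2.29, adjusted p = 0.226), and it was 0.35 without control 2 and 1.67 without control 1. CNN3, the acidic calponin, was lower, at 114 and 28.0 FPKM without GLUP and at 13.0 and 16.0 FPKM with it (log2 difference −1.90, unadjusted p = 0.0301, adjusted p = 0.129). CNN2 made up 14.5% and 20.2% of calponin FPKM in the control libraries and 70.1% and 55.6% in the GLUP libraries, and the groups were far apart. On the log2 scale CNN2 minus CNN3 was −2.50 and −1.84 in the control libraries and 1.17 and 0.31 in the GLUP libraries, a difference of 2.91 between the groups. The transcripts differ in GC content (56.0% for CNN2 and 43.0% for CNN3), and with the GC trend of the tested genes removed the difference was 2.02. CNN1 (ENSG00000130176, chr19:11649582-11661138, plus strand), the calponin of differentiated smooth muscle, was at 0.0297 FPKM in control 1 and listed at 0 in the other 3 libraries.

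TAGLN, transgelin or SM22-alpha (ENSG00000149591, chr11:117070086-117078180, plus strand), is an actin-binding protein used as an early marker of smooth muscle. It was at 0.948 and 0.208 FPKM without GLUP and at 0.918 and 0.682 FPKM with it. Control 1 was the highest library and control 2 the lowest, so the groups overlapped. The fitted log2 difference was 0.23 (SE 0.30, adjusted p = 0.690), and it was −0.12 without control 2. TAGLN2, the widely expressed relative, was at 11.3 and 2.27 FPKM against 30.6 and 20.5 FPKM (2.04, unadjusted p = 0.0218, adjusted p = 0.117). TAGLN made up 7.74% and 8.41% of transgelin FPKM in the control libraries and 2.91% and 3.22% with GLUP, lower in both GLUP libraries. TAGLN minus TAGLN2 differed by −1.81 between the groups on the log2 scale, and by the same −1.81 with the GC trend of all genes above 0 removed. PCSK7, which overlaps TAGLN on the opposite strand, was at 0.520 and 0.278 FPKM without GLUP and at 1.17 and 1.13 FPKM with it. Its part in the TAGLN values was not tested.

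TPM1 (ENSG00000140416, chr15:63334819-63364114, plus strand) encodes a tropomyosin, a coiled coil that runs along actin filaments and governs access of myosin. It was at 24.4 and 25.1 FPKM without GLUP and at 19.3 and 15.3 FPKM with it. The control libraries lay within a factor of 1.03 of each other, and both GLUP libraries were lower. The log2 difference was −0.50 (SE 0.32, 95% CI −1.29 to 0.29, adjusted p = 0.299), between −0.66 and −0.34 when each library was left out in turn. Measured from the median gene it was −0.15, and with the GC trend removed it was −0.08, which puts TPM1 close to the typical gene. TPM4 was lower as well, at 76.4 and 51.0 FPKM without GLUP and at 42.7 and 36.6 FPKM with it (−0.65, adjusted p = 0.253). TPM2 was slightly higher in both GLUP libraries (10.2 and 9.30 against 11.7 and 10.7 FPKM, log2 difference 0.18, limma adjusted p = 0.686), as were 17.5% of the genes of the main test. TPM3 overlapped between the groups (53.2 and 34.7 against 52.9 and 47.6 FPKM). TPM1 made up 14.9% and 20.9% of tropomyosin FPKM in the control libraries and 15.2% and 13.9% with GLUP, with overlap.

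MYL9 (ENSG00000101335, chr20:35169900-35179850, plus strand), the regulatory light chain of smooth muscle and non-muscle myosin II, was lower in both GLUP libraries. It was at 1.24 and 1.11 FPKM without GLUP and at 0.688 and 0.816 FPKM with it, and the replicates of each group were close. The control mean was 1.56 times the GLUP mean, with a log2 difference of −0.31 (SE 0.17, 95% CI −0.79 to 0.16, adjusted p = 0.544). Its relatives supplied nearly all light chain RNA. MYL12B was at 675 and 860 FPKM without GLUP and at 467 and 526 FPKM with it (−0.62, adjusted p = 0.210), and MYL12A was at 312 and 547 against 279 and 297 FPKM (−0.52, adjusted p = 0.357). All 3 genes were lower in both GLUP libraries. So were 26.5% of all genes above 0, the fit MYL9 was read from, and 49.7% of the genes of the main test, which held MYL12A and MYL12B. MYL9 made up between 0.0789% and 0.126% of the sum of the 3 genes, with overlap between the groups.

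FLNA (ENSG00000196924, chrX:153576892-153603002, minus strand) encodes filamin A, which cross-links actin filaments and ties them to integrins. It showed the clearest separation of the 10 genes, at a low level. FLNA was at 0.437 and 0.171 FPKM without GLUP and at 1.39 and 1.48 FPKM with it. The lower GLUP library was 3.18 times the higher control library, and the GLUP libraries lay within a factor of 1.07 of each other. The means were 0.304 ± 0.188 and 1.43 ± 0.0640 FPKM (SD, n = 2), a ratio of 4.71. GLUP minus control was 0.91 on the log2 scale (SE 0.19, 95% CI 0.37 to 1.44), with an unadjusted p of 0.00893 and an adjusted p of 0.333 in limma. Of the 28873 genes in that fit, most of them averaging under 1 FPKM, 97.9% had a lower value. ACTA2 was ranked among the genes of the main test, so these ranks are not comparable. The log2 difference of FLNA stayed between 0.76 and 1.05 when each library was left out in turn, and it was 2.01 with a pseudocount of 0.1. The adjusted p ran from 0.0821 to 0.469 over the alternatives.

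FLNC, the filamin of muscle, was at 0.211 and 0.127 FPKM without GLUP and at 0.301 and 0.281 FPKM with it, a log2 difference of 0.14 (adjusted p = 0.575 in limma). The longest FLNA transcript has a GC content of 62.1%, and with the GC trend of all genes above 0 removed its log2 difference was 0.83. That trend took out less than the trend of the tested genes. CNN2 minus CNN3 differed by 2.79 between the groups with the former removed and by 2.02 with the latter. FLNA was not among the tested genes, so how much of its difference went with GC content is uncertain.

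VCL (ENSG00000035403, chr10:75754951-75881121, plus strand) encodes vinculin, which couples talin to actin at focal adhesions. It was at 2.58 and 1.91 FPKM without GLUP and at 3.15 and 2.27 FPKM with it. The groups overlapped, since the second GLUP library was below the first control library. On the log2 scale the difference was 0.19 (SE 0.28, 95% CI −0.51 to 0.89, adjusted p = 0.646), 0.55 measured from the median gene, 0.67 with the GC trend removed, 0.041 without control 2 and 0.021 without GLUP 1. AP3M1, which overlaps VCL on the opposite strand, was at 1.13 and 1.12 FPKM against 0.857 and 0.898 FPKM.

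Other genes of the pathway were taken from fixed lists. The further contractile genes were split. Of 24 genes 15 were tested, 7 had a log2 difference above 0 and 8 below (33.3% and 66.7% of all genes tested), and the median was −0.16. The sign of that median was not stable, since it was 0.19 with libraries centred on their medians and 0.079 with the GC trend removed. ACTB, TAGLN2 and ACTN1 were higher and CNN3 lower at an unadjusted p under 0.05 and a fold over 2, which is 4 of 15 genes against 19.2% of all genes tested (4.67% higher and 14.5% lower). ACTN1, the actinin that bundles actin in stress fibres, was at 2.19 and 0.782 FPKM without GLUP and at 4.03 and 3.74 FPKM with it (1.03, unadjusted p = 0.0267, adjusted p = 0.125). MYL6, the essential myosin light chain, was the most abundant of the list and overlapped between the groups (8637 and 9730 against 7328 and 9137 FPKM).

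Among the further focal adhesion genes 10 of 23 were tested, with 7 above and 3 below 0, against 33.3% and 66.7% of all genes tested. Their median was 0.37, against −0.36 for all genes tested. Without control 2 the median was −0.013, and without control 1 it was 0.77. PDLIM7, a LIM protein of actin filaments, was the 1 gene of 10 past an unadjusted p of 0.05 and a fold of 2 (4.67% of all genes tested were so higher and 14.5% lower). It was at 7.89 and 1.21 FPKM without GLUP and at 15.8 and 12.7 FPKM with it (1.78, unadjusted p = 0.0372, adjusted p = 0.139). ZYX had a lower p but fell short of that fold on this scale, at 1.05 and 0.314 against 2.28 and 2.04 FPKM (0.94, limma unadjusted p = 0.0195, adjusted p = 0.114). No tested gene of the list was lower at an unadjusted p under 0.05. CSRP2, another LIM protein, was at 68.8 and 32.2 against 70.9 and 64.7 FPKM, and PDLIM1 at 28.0 and 23.3 against 28.5 and 21.3 FPKM, both with overlap. ILK, the integrin-linked kinase, was at 6.05 and 0.716 against 8.74 and 6.67 FPKM (1.31, adjusted p = 0.221). In PDLIM7, ILK and TAGLN2, as in ACTA2 and CNN2, control 2 was well below control 1.

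Immediate early genes, the targets of SRF with ternary complex factors, were little expressed. Of 10 genes 2 were tested, IER3 (2.35 and 1.59 against 1.92 and 1.05 FPKM, −0.27) and MCL1 (2.24 and 1.19 against 1.36 and 0.803 FPKM, −0.37), both with overlap and adjusted p of 0.543 and 0.408. Of the 8 genes with a value, JUNB was higher (0.536 and 0.0918 against 1.19 and 0.838 FPKM) and EGR1 lower (0.211 and 0.443 against 0.0829 and 0.0315 FPKM) in both GLUP libraries. Of all genes above 0, 13.2% were higher and 26.5% lower in both. FOSB and EGR2 were listed at 0 in all 4 libraries. No gene of these lists had an adjusted p under 0.05 in limma.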

How the data were processed

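RNA-seq was carried out on 2 control and 2 GLUP libraries of HGC-27 cells. The authors deposited FPKM values per gene, made on the Majorbio platform; the labels name HISAT2, Cufflinks and RSEM, without versions or roles, and GRCh38.p10, whereas the row identifiers have the form of GENCODE annotation lifted to GRCh37. Sequencing depth is unknown. The 62492 rows (49 second copies of pseudoautosomal genes were summed) gave 62443 genes, 99.55% of them named. Gene positions, lengths and GC content are from GENCODE v44 lifted to GRCh37, and promoter windows from RefSeq on GRCh38.p14.

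log2(FPKM + 1) was fitted with limma 3.58.1 in R 4.3.3 (mean-variance trend, two-sided, Benjamini-Hochberg) over the 7588 genes averaging 1 FPKM or more. The 6 targets below that mean were read from the same fit over 28873 genes above 0, an alternative chosen after seeing the data. The GC trend was removed by lowess (span 0.3) against GC content (longest transcript). Scripts were tested on simulated data. Alternatives were a pseudocount of 0.1, other filters, centring, quantile normalization, a replicate block, no trend, a fold of 1.5 and leaving out each library.

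The 10 genes and the lists were chosen with earlier results of these data known. Some results are not reported here. Named were the 10 genes, most of their near relatives and the SRF partners, and in each other list the 4 tested genes with the highest mean FPKM and those past a fold of 2 at an unadjusted p under 0.05. Markers, overlapping genes, LUM, DCN and COL3A1, ZYX, and the immediate early genes FOSB, EGR2, JUNB and EGR1 were named beside the values they touch.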

Additional observations from a re-analysis of the deposited data

How the results depend on the processing

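Of 117 alternative values for the log2 difference of the 10 genes, 113 kept their direction. The 4 that did not were SRF with quantile normalization (0.038), TAGLN without control 2 (−0.12, in a range up to 0.57 leaving out a library), CNN1 centred on medians (0.0027) and CNN1 without control 1 (0, since CNN1 is listed at 0 in the other 3 libraries); for the first 3 the cause was not tested. The 6 targets under 1 FPKM and VCL have no value under a minimum mean of 5 FPKM. Leaving out a library moved the log2 difference of ACTA2 between 0.49 and 2.11 and that of CNN2 between 0.35 and 1.67, both highest without control 1. At an unadjusted p under 0.05 with a fold over 2, 0 of the 4 tested genes were called as reported, beside 1457 of all 7588 genes tested. Centred on medians 2 were called beside 1224 of all genes, and with quantile normalization 2 beside 1159. With the GC trend removed 1 was called beside 700. Of the 6 genes read from the second fit, FLNA passed the unadjusted rule with a pseudocount of 0.1 and with quantile normalization. The share of all genes above 0 that passed in those settings is not given here, so these FLNA calls have no background beside them. None passed in the other settings run with all 4 libraries. Without a filter, 6 and 4 genes were higher and lower, in place of 3 and 1 tested. The median of the 10 genes (0.19) was 0.46 with a pseudocount of 0.1 and −0.00054 to 0.28 leaving out a library.

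Equal replicate numbers mark no shared day in the labels, and same-numbered libraries deviated together with r = 0.126 over only 2 pairs, so the numbers were not taken as pairs. With the replicate block, 2 of the 4 tested genes passed the unadjusted rule (ACTA2 and CNN2, with adjusted p of 0.108 and 0.136 in limma), beside 1688 of all genes tested. With the GC trend removed as well, 1 passed beside 834.

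Over all genes, 2 passed an adjusted p under 0.05 with a fold over 2. The count was 0 without a filter, 0 under a minimum mean of 5 FPKM, 0 without the trend, 0 with the GC trend removed and 16 with the replicate block too, 1 each with a pseudocount of 0.1, centring and quantile normalization, and 4 to 2710 leaving out a library. The unadjusted count of 1457 became 890 under a minimum mean of 5 FPKM, 700 with the GC trend removed, 834 with the block too, 2401 at a fold of 1.5 and 587 to 2729 leaving out a library.

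The contractile median (−0.16) was 0.064 without a filter, 0.19 centred, 0.081 with quantile normalization, 0.079 with the GC trend removed, with or without the block, and −0.13 to −0.034 leaving out a library. The focal adhesion median (0.37) was 0.91 under a minimum mean of 5 FPKM, 0.057 without a filter and −0.013 to 0.77 leaving out a library. The immediate early median (−0.32, from 2 genes) was 0.024 centred, −0.043 without a filter and −0.55 to −0.084 leaving out a library.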
